A study of Mus musculus with 36 samples.

Results

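The genes described here were 10 regulators of the G1 phase of the cell cycle: the D-type cyclins Ccnd1, Ccnd2 and Ccnd3, their kinases Cdk4 and Cdk6, the kinase inhibitors Cdkn1a, Cdkn1b, Cdkn2a and Cdkn2b, and the transcription factor Myc. They were taken by gene name, and all 10 were present among the 53421 genes of the count table and the 52416 genes of the table of TPM, a level scaled by transcript length and library. D-type cyclins accumulate when cells receive growth signals, bind the kinases CDK4 and CDK6, and together they phosphorylate the retinoblastoma protein so that E2F factors can switch on the genes of S phase. The INK4 inhibitors encoded by Cdkn2a and Cdkn2b bind the kinases directly, whereas the Cip/Kip inhibitors p21 (Cdkn1a) and p27 (Cdkn1b) act on cyclin-kinase complexes, and p21 is a classical product of p53 activity. Myc binds E-box sequences with its partner Max, is an immediate early gene of growth stimulation, and drives genes of ribosome production and metabolism.

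The libraries were of poly(A) RNA from mouse fibroblast-like chondrocytes, a conditionally immortalised line released from immortalisation before the experiments. Cells of the NT group were transfected with a non-targeting siRNA pool and those of the IFT88siRNA group with a pool against Ift88, which encodes an intraflagellar transport protein needed to build the primary cilium. Each group was sampled without cytokine (0 h) and with IL-1β at 10 ng/ml for 1, 2, 4, 8 or 24 h, with 3 libraries in each of the 12 conditions and 36 in all. The comparisons addressed how the line responds to this inflammatory cytokine and whether depletion of IFT88 alters that response. All groups carried siRNA and transfection reagent, and the line is a single source of cells. Nothing in the labels says that the 3 libraries of a condition came from separate cultures, so p-values measure only the spread between these samples, which may be technical. No unstimulated cells were sampled after 0 h, so the effects of IL-1β and of further time in culture cannot be told apart.

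Library totals of gene counts ran from 19337022 to 38304127. Their median was 21672803.5 in NT and 25873754 in IFT88siRNA. All 10 genes passed the filter on low counts in every comparison, and their counts in a library ran from 590 for Cdk6 to 33833 for Cdkn1a. Ift88 itself fell in IFT88siRNA at all 6 times, by 1.47 (24 h) to 2.12 (2 h) on the log2 scale, and its level at 0 h was 9.06 ± 0.362 CPM (counts scaled to a common library size) in NT and 2.77 ± 0.155 in IFT88siRNA (SD, n = 3 each). Fibroblast markers dominated the marker lists, with all 8 above a median of 1 TPM and a sum of 1059 to 1594 TPM. The 9 chondrocyte markers summed to 30.6 to 160.2 TPM. Of these, 6 were above a median of 1 TPM, with Col11a1 (47.7), Comp (16.1) and Sox9 (11.6) the highest. Acan, Col9a1 and Matn1, which encode cartilage matrix proteins, had medians of 0.0444, 0 and 0.122 TPM. Leukocyte, endothelial and epithelial lists summed to at most 15.1, 1.78 and 7.42 TPM. On log2(TPM + 1) the Ift88 difference at 4 and 8 h, -1.35 and -1.62, had limma adjusted p of 0.113 and 0.0989. In bulk RNA, fewer cells in a phase and less RNA per cell cannot be told apart.

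The genes lie at separate loci except for the INK4 pair, which stand 11645 bases apart on chromosome 4 (build GRCm38). Cdkn2a spans chr4:89274471-89294653 and Cdkn2b chr4:89306299-89311039, both on the minus strand. The gene-level values of Cdkn2a sum the transcripts of p16Ink4a and of p19Arf, a different protein that stabilises p53, and these could not be separated. The reads were counted without regard to strand, and 23.4% of the exonic bases of Ccnd1 (chr7:144929931-144939925, minus strand) are shared with LTO1 on the other strand and 19.7% of those of Cdk4 (chr10:127063534-127067920, plus strand) with Tspan31. The counts of those neighbours over all 36 libraries, 13900 for LTO1 and 61845 for Tspan31, compared with 153893 for Ccnd1 and 393525 for Cdk4.

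Promoter windows of 250 bases upstream of annotated starts (RefSeq, GRCm38.p6) matched 7 of the 10 genes, in 10 windows, with no entry for Ccnd1, Ccnd2 or Myc. The motifs searched on both strands were the E-box CACGTG bound by Myc and Max, the AP-1 site TGANTCA, the cyclic AMP response element TGACGTCA (CRE), the GC box GGGCGG and the NF-kB consensus. The windows of the kinase genes and of Cdkn2b are shown because they were the windows with an E-box or a CRE. Capitals mark an E-box in Cdk4 (chr10:127063285-127063534, plus strand) and Cdk6 (chr5:3343643-3343892, plus strand) and the CRE in Cdkn2b (chr4:89311033-89311282, minus strand), each written 5′ to 3′.
Cdk4: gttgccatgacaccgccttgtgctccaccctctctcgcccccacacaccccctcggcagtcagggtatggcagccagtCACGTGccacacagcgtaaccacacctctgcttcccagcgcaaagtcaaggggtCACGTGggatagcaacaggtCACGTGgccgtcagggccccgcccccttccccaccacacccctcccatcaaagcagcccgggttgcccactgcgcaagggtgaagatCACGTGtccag
Cdk6: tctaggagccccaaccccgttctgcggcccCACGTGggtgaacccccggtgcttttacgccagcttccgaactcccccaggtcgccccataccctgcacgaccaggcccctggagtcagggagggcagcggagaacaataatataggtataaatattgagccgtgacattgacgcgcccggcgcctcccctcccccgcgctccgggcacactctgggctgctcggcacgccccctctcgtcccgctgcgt
Cdkn2b: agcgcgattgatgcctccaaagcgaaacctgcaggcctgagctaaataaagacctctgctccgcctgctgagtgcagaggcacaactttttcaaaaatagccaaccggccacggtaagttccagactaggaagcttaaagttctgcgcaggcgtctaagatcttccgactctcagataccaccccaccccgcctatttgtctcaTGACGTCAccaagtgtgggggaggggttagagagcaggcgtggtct
The Cdk4 window held 4 E-boxes, beginning 172, 118, 98 and 11 bases before the start, and the Cdk6 window held 1, beginning 220 bases before it. Of 32851 promoter windows of this length, 6.02% held an E-box and 7 windows, or 0.0213%, held at least 4. The CRE of Cdkn2b began 46 bases before its start, and 1.55% of windows held one. AP-1 and NF-kB matches, present in 6.75% and 7.25% of all windows, were in none of the 10 windows of these genes. The GC box was in windows of Cdk4, Cdkn1a, Cdkn1b, Cdkn2a and Ccnd3 and in 32.7% of all windows. These are matches of letters and were not measured as binding sites.

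In TPM, which is per transcript length and so allows genes to be compared, the inhibitors Cdkn1a and Cdkn2a and the kinase Cdk4 were the highest of the 10 in unstimulated NT cells. Their levels were 1318 ± 6.94, 884 ± 7.09 and 832 ± 20.0 TPM (SD, n = 3), and no library of one overlapped those of the next. Ccnd2 at 262 ± 21.5 and Ccnd1 at 233 ± 6.52 TPM followed and overlapped each other, then Ccnd3 at 168 ± 5.86 TPM. Cdkn1b, Cdkn2b and Myc were lower, at 100.3 ± 3.2, 88.4 ± 2.39 and 62.6 ± 1.95 TPM, and Cdk6 was the lowest at 10.3 ± 0.485 TPM. After 4 h of IL-1β the order in NT was Cdkn2a, Cdkn1a, Cdk4, Ccnd3, Ccnd2, Myc, Cdkn2b, Ccnd1, Cdkn1b and Cdk6, from 1021 to 32.3 TPM, with no overlap between neighbours. Ccnd1 had thus moved from the fifth to the eighth place and Ccnd3 from the sixth to the fourth. At 24 h Cdkn1a was again the highest, at 1118 ± 43.4 TPM, and Cdk6 the lowest, at 18.5 ± 0.584 TPM.

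**Figure D1:**
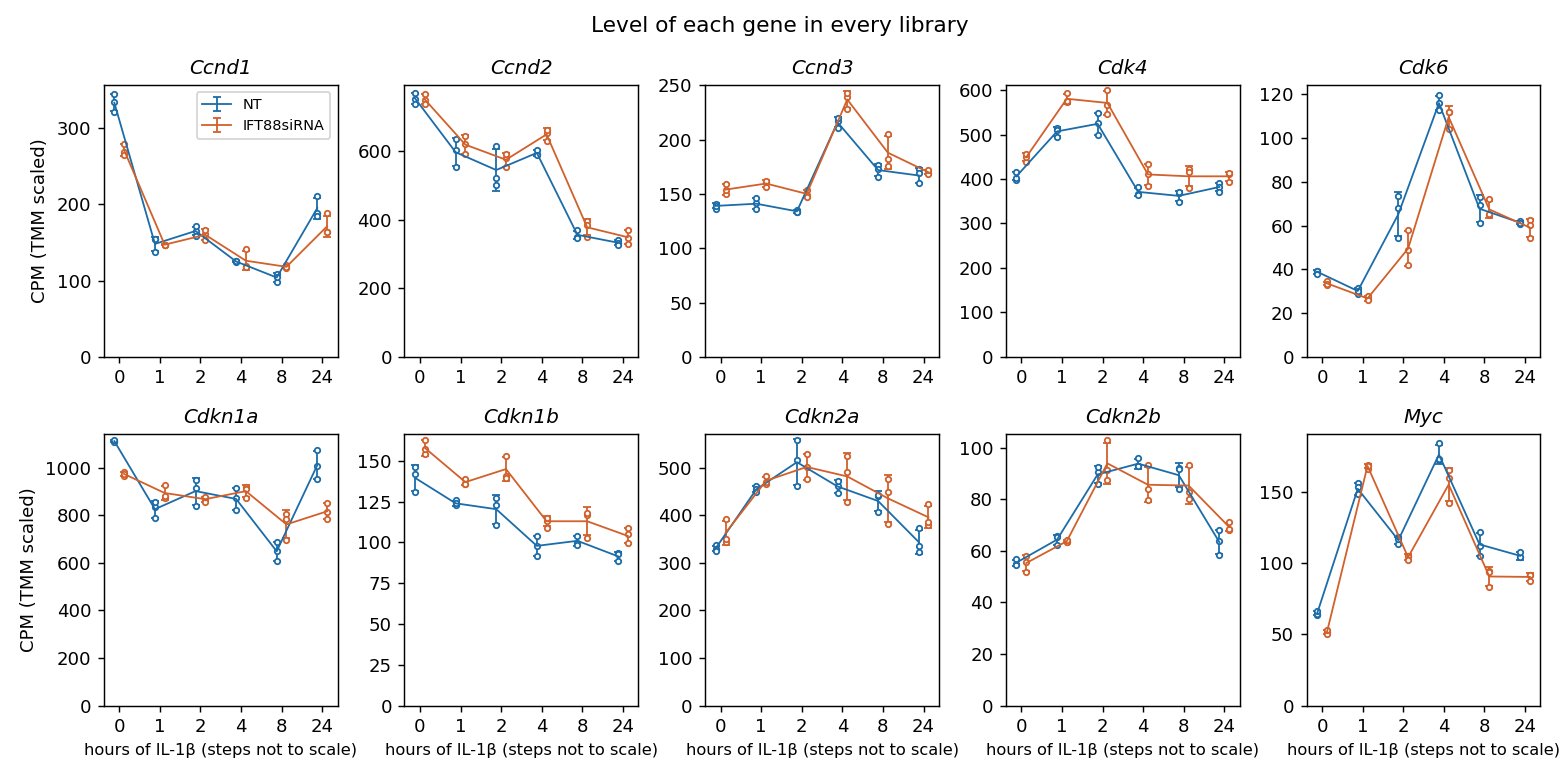
Level of each of the 10 genes in CPM (TMM scaled, linear axes from 0) at 0 to 24 h of IL-1β in NT (blue) and IFT88siRNA (orange); open circles are libraries, lines join means and bars are SD of 3 libraries. In NT, Ccnd1 has a mean of 333 CPM at 0 h and 104 CPM at 8 h, Cdk6 of 38.9 and 116 CPM at 0 and 4 h, and Myc of 64.7 and 176 CPM at 0 and 4 h.

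In NT cells 9 of the 10 genes were called different from 0 h at 1 or more of the 5 times with IL-1β. Ccnd3, Cdk6, Cdkn2a, Cdkn2b and Myc rose, and Ccnd1, Ccnd2, Cdkn1a and Cdkn1b fell. These differences include any effect of further time in culture. Cdk4 was the gene not called. A gene was called where edgeR's quasi-likelihood test gave a Benjamini-Hochberg adjusted p under 0.05 over all genes tested and the fold was over 1.5, and in this joint test of the time course 50.0% of all genes were called. With library size scaling 7 of the 10 were called, without Ccnd3 and Cdkn2a, and 6 with limma on log2(TPM + 1), also without Cdkn2b. By time, from 1 h to 24 h, 2, 5, 5, 6 and 5 of the 10 were called, against 18.7%, 27.3%, 28.7%, 19.7% and 16.3% of all genes. The libraries of 0 h and the later time did not overlap for 9, 10, 10, 10 and 9 of the genes, but the same held for 61.6%, 64.3%, 66.8%, 60.1% and 52.8% of all genes. The 5 comparisons share their 0 h libraries.

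The scaling of libraries bears on the rises and falls at 1 to 4 h. TMM scaling, used for the count fits and the CPM levels unless stated, centres the bulk of genes on no change. TPM values were used without it, so TPM levels, TPM shares and the limma results are not centred in this way. With scaling to library size alone, the median gene shifted by -0.194, -0.285 and -0.295 at 1, 2 and 4 h in NT on the log2 scale, and by -0.089 and -0.053 at 8 and 24 h. The share of called genes that were higher went from 49.4%, 47.6%, 56.7%, 60.0% and 40.5% to 28.1%, 23.2%, 30.7%, 49.5% and 35.5% at the 5 times. Changes in counts are therefore given relative to the bulk of genes. Calls that did not hold under library size scaling, an alternative chosen after seeing the data, are named with each gene.

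**Figure D2:**
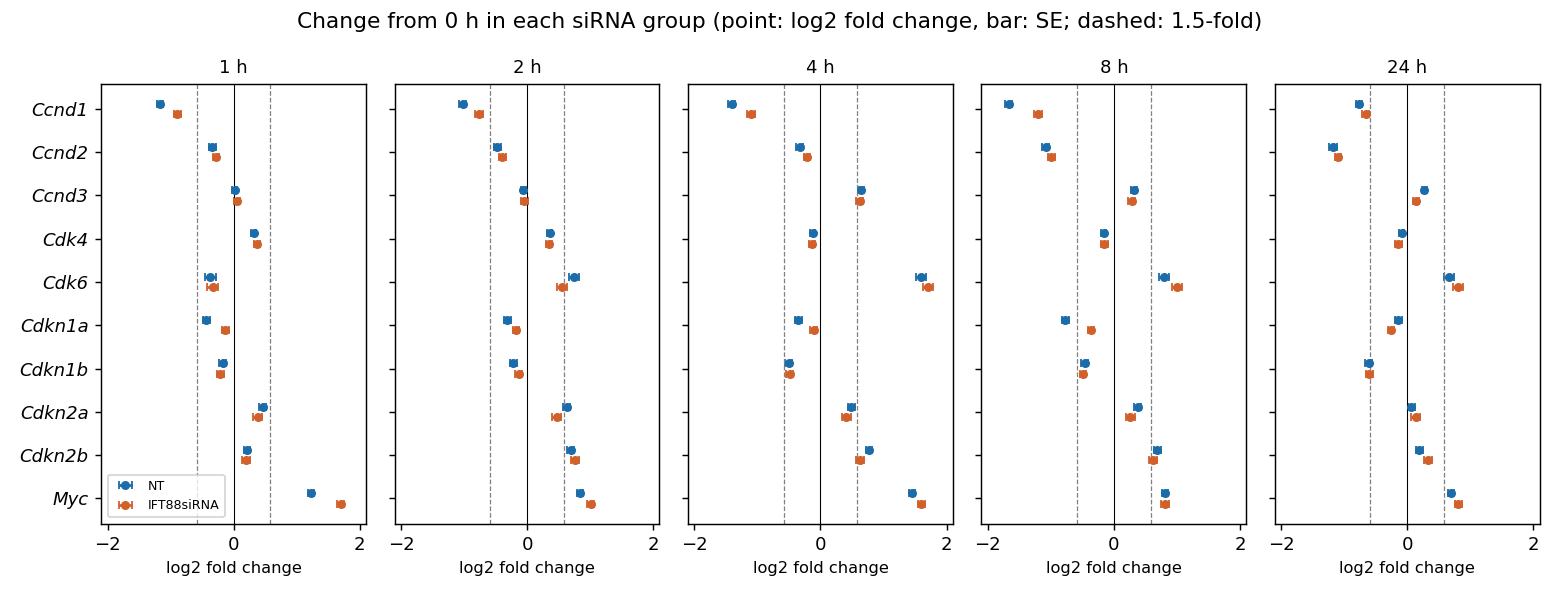
Log2 fold change from 0 h (x axis) of each gene (y axis) from 1 h to 24 h in NT (blue) and IFT88siRNA (orange); bars are SE and dashed lines mark a fold of 1.5. Ccnd1 lies left of the dashed line and Myc right of it at all 5 times in both groups, and Cdk4 stays between the dashed lines, within 0.37 of 0.

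Ccnd1, the cyclin most directly tied to mitogen signalling, fell at every time after IL-1β in NT. Its 3 libraries held 344, 334 and 321 CPM at 0 h and 137, 154 and 154 CPM at 1 h. At 4 h they held 124, 125 and 126 CPM, at 8 h 109, 98.4 and 105 CPM, and at 24 h 210.4, 189 and 184 CPM. Every stimulated library lay below every 0 h library, with the lowest values at 8 h. The log2 change was -1.17 at 1 h, -1.02 at 2 h, -1.41 at 4 h, -1.67 (SE 0.0532, edgeR adjusted p = 2.16e-18) at 8 h and -0.77 at 24 h. At 8 h this left 31.4% of the 0 h level. These calls held under every scaling, in TPM, in DESeq2 and with any replicate left out.

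Ccnd2, which is set by growth factors in many cell types, fell later than Ccnd1. In NT it stood at 753, 771 and 738 CPM at 0 h and at 591, 604 and 590.2 CPM at 4 h. It then stood at 370.2, 350.1 and 348 CPM at 8 h and 340.1, 333 and 326 CPM at 24 h. The libraries of 8 and 24 h lay below all those of the earlier times. The log2 change of -1.08 at 8 h and -1.18 (SE 0.0572, edgeR adjusted p = 1.2e-14) at 24 h passed the test, leaving 44.2% of the 0 h level at 24 h. At 1, 2 and 4 h the log2 change was -0.34, -0.47 and -0.33, under the fold threshold. With library size scaling the values at 2 and 4 h, -0.76 and -0.63, passed it.

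Ccnd3, the cyclin prominent in lymphoid and differentiated cells, rose most at 4 h, the only time at which it was called. In NT its libraries held 136, 141 and 139 CPM at 0 h, 135, 133 and 133 CPM at 2 h, and 217, 211 and 220.2 CPM at 4 h. The 4 h libraries lay above all others of NT. The fold was 1.57 at 4 h (log2 change 0.65, SE 0.0406, edgeR adjusted p = 6.71e-13). The log2 changes at 8 and 24 h, 0.32 and 0.27, were under the fold threshold, with edgeR adjusted p of 4.29e-07 and 5.34e-06. The libraries of 8 and 24 h did not overlap those of 0 h. The call at 4 h did not hold with library size scaling, where the log2 change was 0.35, or on log2(TPM + 1), where it was 0.41.

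In sum the D-type cyclin transcripts of NT went from 663 ± 31.2 TPM at 0 h to 379 ± 8.9 TPM at 8 h (SD, n = 3), and their make-up turned from Ccnd1 and Ccnd2 towards Ccnd3. Ccnd1 made up 35.2% ± 1.02 of the sum at 0 h, 14.8% ± 0.135 at 4 h and 29.1% ± 1.19 at 24 h. Ccnd3 made up 25.3% ± 0.812 at 0 h, 46.4% ± 1.3 at 4 h and 49.8% ± 0.507 at 8 h. At 1 h the share of Ccnd3 was 33.3% ± 1.87, although its level, 145 ± 6.76 TPM, was below the 168 ± 5.86 TPM of 0 h. Ccnd2 held 39.4% ± 1.42 at 0 h, 45.9% ± 1.75 at 1 h, 38.8% ± 1.18 at 4 h and 26.6% ± 1.54 at 24 h. In IFT88siRNA the share of Ccnd1 went from 29.2% ± 0.834 at 0 h to 14.2% ± 1.06 at 4 h, and that of Ccnd3 from 28.9% ± 0.567 to 50.0% ± 0.907 at 8 h. These shares are descriptions and were not tested.

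**Figure D3:**
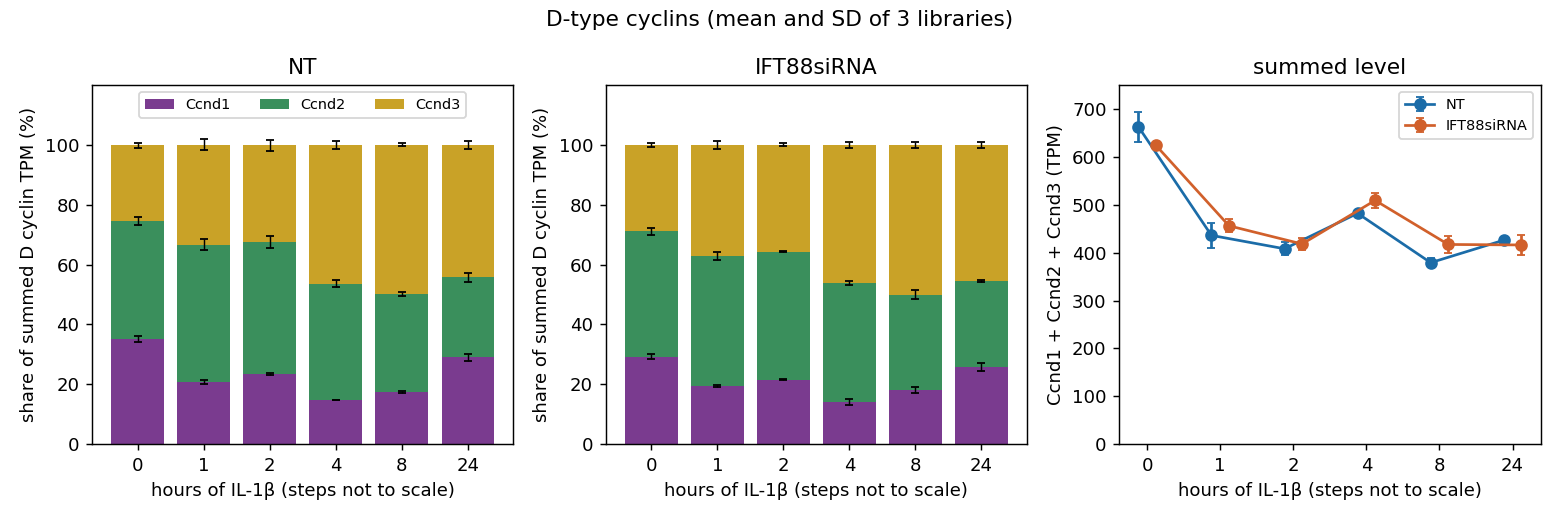
Left and middle, share of the summed D-type cyclin TPM (percent) taken by Ccnd1, Ccnd2 and Ccnd3 at each time in NT and IFT88siRNA; right, the summed level in TPM; values are means with SD of 3 libraries. The Ccnd1 share in NT drops from 35.2% to 14.8% at 4 h while the Ccnd3 share grows from 25.3% to 49.8% at 8 h.

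The kinase partners behaved differently. Cdk6 rose from 2 h on in NT, with libraries of 39.4, 39.3 and 38.0 CPM at 0 h and 67.9, 54.2 and 73.6 CPM at 2 h. It reached 116, 119.6 and 113 CPM at 4 h and stood at 62.0, 60.8 and 61.1 CPM at 24 h. From 2 h on, all libraries lay above those of 0 h. The fold was 1.67 at 2 h, 3.0 at 4 h (log2 change 1.59, SE 0.0771, edgeR adjusted p = 4.32e-15), 1.74 at 8 h and 1.58 at 24 h. The call at 2 h was lost with library size scaling, with a log2 change of 0.46. At 1 h the sources disagreed: in counts Cdk6 stood at 31.5, 28.6 and 30.2 CPM, a log2 change of -0.37 from 0 h, while on log2(TPM + 1) the change was 0.46 (limma adjusted p = 0.0032).

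Cdk4 differed little in size at any time. It stood at 398, 403 and 416 CPM at 0 h in NT and at 525, 548 and 498 CPM at 2 h, when the groups did not overlap and the level was 1.29 times that of 0 h (log2 change 0.36, edgeR adjusted p = 2.57e-08). At 4, 8 and 24 h the log2 change was -0.12, -0.16 and -0.09. None passed the fold threshold, and the change of greatest size was 0.36 at 2 h with TMM scaling but -0.42 at 4 h with library size scaling and -0.38 at 4 h on log2(TPM + 1). Cdk4 held 81.2 ± 5.15 times the TPM of Cdk6 at 0 h and 20.0 ± 2.54 times at 4 h in NT, so that Cdk6 went from 1.22% ± 0.0738 to 4.81% ± 0.594 of their sum (SD, n = 3).

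Of the Cip/Kip inhibitors, Cdkn1a, the most abundant transcript of the set at 0 h, was lowest at 8 h and returned near its starting level by 24 h. In NT its libraries held 1109.6, 1107 and 1117 CPM at 0 h and 786, 834 and 855 CPM at 1 h. They held 689, 607 and 649 CPM at 8 h and 1073, 1006 and 952 CPM at 24 h. Every library of every later time was below the 3 at 0 h. The log2 change was -0.77 at 8 h (SE 0.0538, edgeR adjusted p = 9.07e-12), which left 58.5% of the 0 h level, and -0.14 at 24 h. The values at 1, 2 and 4 h, -0.43, -0.31 and -0.35, missed the fold threshold with TMM scaling and passed it with library size scaling at -0.63, -0.59 and -0.64. On log2(TPM + 1) those at 1 and 4 h passed it, at -0.61 and -0.62.

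Cdkn1b was called lower at 24 h alone, since its earlier falls were under the fold threshold. Its NT libraries held 131, 142 and 146 CPM at 0 h, 97.6, 104 and 91.7 CPM at 4 h, and 88.4, 93.3 and 92.7 CPM at 24 h. The 4 h and 24 h libraries all lay below those of 0 h. The log2 change was -0.50 at 4 h and -0.46 at 8 h, with edgeR adjusted p of 2.13e-08 and 9.73e-08. At 24 h it was -0.61 (SE 0.0543, edgeR adjusted p = 1.28e-09), or 65.6% of the 0 h level. The call sat at the edge of the fold threshold: without a filter on low counts the log2 change at 24 h was -0.57 and was not called, whereas library size scaling and log2(TPM + 1) also called the value at 4 h, -0.80 and -0.68.

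Both INK4 inhibitors rose at 2 h. Cdkn2b, known as a target of TGF-β signalling, stood at 55.1, 56.7 and 54.5 CPM at 0 h in NT, 90.7, 92.4 and 85.9 CPM at 2 h, and 96.2, 92.8 and 92.8 CPM at 4 h. It was still at 92.3, 84.0 and 91.8 CPM at 8 h and stood at 68.0, 63.8 and 58.6 CPM at 24 h. The libraries of 2, 4 and 8 h did not overlap those of 0 h or 24 h. The fold was 1.61, 1.70 and 1.62 at 2, 4 and 8 h (log2 change at 4 h 0.77, SE 0.051, edgeR adjusted p = 2.04e-12). In TPM the log2 change at these times was 0.40, 0.47 and 0.55, under the fold threshold, and with library size scaling it was 0.40 and 0.47 at 2 and 4 h. At 1 h it was 0.21 in counts but -0.02 on log2(TPM + 1), and neither passed.

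Cdkn2a followed a flatter course. Its NT libraries held 337, 329.6 and 326 CPM at 0 h, 516, 558 and 462 CPM at 2 h, and 373, 335 and 323 CPM at 24 h. The libraries of 2 h lay above those of 0 h, and those of 24 h overlapped them. The fold was 1.54 at 2 h (log2 change 0.63, SE 0.0554, edgeR adjusted p = 5.93e-10), and the log2 changes at 1, 4 and 8 h, 0.46, 0.49 and 0.38, missed the threshold. This call was lost without replicate 2 (0.56), with library size scaling (0.34) and on log2(TPM + 1) (0.33).

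Myc rose within 1 h and stayed above its starting level to 24 h. Its NT libraries held 63.4, 64.4 and 66.1 CPM at 0 h and 148, 156 and 153 CPM at 1 h. They held 113, 118 and 117 CPM at 2 h, 172, 173 and 184 CPM at 4 h, and 104, 104 and 108 CPM at 24 h. Every stimulated library lay above the 0 h libraries, and those of 2 h lay below those of both 1 h and 4 h. The fold was 2.35 at 1 h (log2 change 1.23, SE 0.0481, edgeR adjusted p = 1.59e-16), 1.79 at 2 h, 2.74 at 4 h (adjusted p = 1.73e-18), 1.75 at 8 h and 1.63 at 24 h. With library size scaling the value at 2 h, 0.55 on the log2 scale, was not called, and the other 4 times were.

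In IFT88siRNA cells 7 of the 10 genes were called in the joint test of the time course, against 48.2% of all genes. Cdk4, Cdkn1a and Cdkn2a were not called. By time, 2, 3, 5, 5 and 5 genes were called, against 15.1%, 25.6%, 29.3%, 17.6% and 14.2% of all genes. The libraries did not overlap those of 0 h for 9, 9, 10, 9 and 9 of the genes, and for 54.6%, 64.6%, 63.6%, 52.6% and 52.7% of all genes. These comparisons share the IFT88siRNA 0 h libraries, and the directions of Ccnd1, Ccnd2, Ccnd3, Cdk6, Cdkn1b, Cdkn2b and Myc were those of NT. With library size scaling the median gene shifted by -0.178, -0.268 and -0.266 at 1, 2 and 4 h, and the share of called genes that were higher went from 45.2%, 48.4%, 54.5%, 59.7% and 44.7% to 25.5%, 24.4%, 31.9%, 50.5% and 43.1%.

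Among the cyclins and kinases of IFT88siRNA, Ccnd1 stood at 279.6, 269 and 265 CPM at 0 h and fell to 120.3, 117 and 118 CPM by 8 h, a log2 change of -1.20 (SE 0.0607, edgeR adjusted p = 3.66e-14). Ccnd2 fell by 0.99 and 1.10 on the log2 scale at 8 and 24 h, and Ccnd3 rose 1.54-fold at 4 h. With library size scaling Ccnd2 was also called at 2 h, at -0.66. Cdk6 rose from 34.5, 33.0 and 33.2 CPM to 112, 104 and 112 CPM at 4 h, a fold of 3.26 (edgeR adjusted p = 1.81e-15). At 2 h the log2 change of Cdk6 was 0.56 and not called, but it was 0.59 without replicate 1 and 0.65 without replicate 2, and then passed, as did 0.82 on log2(TPM + 1). At 1 h it was -0.33 in counts and 0.21 on log2(TPM + 1). The Ccnd3 call did not hold with library size scaling (0.35) or on log2(TPM + 1) (0.38).

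Among the inhibitors of IFT88siRNA, Cdkn1a stood at 983, 965 and 971 CPM at 0 h and at 804, 784 and 694 CPM at 8 h, a log2 change of -0.36 that missed the fold threshold. Cdkn1b fell by 0.60 on the log2 scale at 24 h, a call that was lost without replicate 1 or replicate 3 (-0.57 each) and without a filter on low counts (-0.58). At 4 h Cdkn1b was called with library size scaling (-0.75) and on log2(TPM + 1) (-0.68). Cdkn2b rose 1.70-fold at 2 h, 1.55-fold at 4 h and 1.54-fold at 8 h, and these 3 calls were not held with library size scaling (log2 changes 0.50, 0.36 and 0.54) or on log2(TPM + 1) (0.54, 0.41 and 0.55). Without replicate 1 its value at 8 h was 0.56 and was not called. Cdkn2a had log2 changes of 0.38, 0.47 and 0.41 at 1, 2 and 4 h, none over the fold threshold. Myc, at 51.3, 50.3 and 52.8 CPM at 0 h, rose to 166, 169 and 168 CPM within 1 h, a fold of 3.25 (log2 change 1.70, SE 0.0566, edgeR adjusted p = 7.4e-18), and was 3.02-fold its 0 h level at 4 h.

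Set directly against NT at the same time, IFT88siRNA cells showed no called difference in any of the 10 genes at any of the 6 times by edgeR, DESeq2 or limma. The shares of all genes called were 2.23%, 2.66%, 0.496%, 0.432%, 0.692% and 1.15% from 0 h to 24 h. Smaller differences were present: by adjusted p alone, with no fold threshold, 8, 4, 1, 0, 1 and 4 of the 10 genes passed, against 19.5%, 19.0%, 2.76%, 3.85%, 4.25% and 8.66% of all genes. At an unadjusted p under 0.05 the counts were 8, 6, 5, 6, 5 and 6, against 32.1%, 32.4%, 17.2%, 17.9%, 21.1% and 22.2% of all genes. The libraries of the 2 groups did not overlap for 8, 7, 3, 6, 4 and 6 genes, against 35.4%, 36.3%, 22.1%, 22.0%, 24.8% and 26.6% of all genes. In the joint test over the 6 times 0 genes were called by edgeR, DESeq2 or limma, against 5.19% of all genes, and 7 passed on adjusted p alone, against 31.8%, and 7 at an unadjusted p under 0.05, against 41.5%. Ccnd2, Cdkn2a and Cdkn2b were the 3 that did not pass on adjusted p.

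At 0 h, Ccnd1 and Myc, both growth-induced genes, were lower in IFT88siRNA. The Ccnd1 libraries held 279.6, 269 and 265 CPM in IFT88siRNA and 344, 334 and 321 CPM in NT, a log2 difference of -0.30 (SE 0.0403, edgeR adjusted p = 1.47e-05). For Myc they held 51.3, 50.3 and 52.8 CPM and 63.4, 64.4 and 66.1 CPM, a log2 difference of -0.33 (SE 0.0454, edgeR adjusted p = 1.71e-05). No library overlapped between the groups for either gene, and the adjusted p stayed under 0.05 in all alternatives run. Both differences were under 1.5-fold. Cdkn1a differed by -0.19 (adjusted p = 0.000288) and Cdk6 by -0.21 (adjusted p = 0.00561), the latter only in counts, since it was -0.01 on log2(TPM + 1).

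At later times the Ccnd1 difference was -0.02, -0.05 and 0.01 at 1, 2 and 4 h, and 0.17 and -0.19 at 8 and 24 h on the log2 scale, with edgeR adjusted p of 0.0736 or more. Myc was at 148, 156 and 153 CPM in NT and 166, 169 and 168 CPM in IFT88siRNA at 1 h, a log2 difference of 0.13 (adjusted p = 0.0244), the opposite sign to 0 h. The adjusted p of this difference was 0.149 without replicate 1, 0.123 without replicate 3, 0.0656 with all 36 libraries in 1 model and 0.214 on log2(TPM + 1). At 2 and 4 h Myc differed by -0.16 and -0.19 (edgeR adjusted p = 0.0861 and 0.0691), with no overlap of libraries. At 8 h Myc differed by -0.34 (adjusted p = 0.0221) and at 24 h by -0.23 (adjusted p = 0.00527). The values at 8 and 24 h did not hold without some single replicates: without replicate 2 the adjusted p was 0.277 at 8 h and 0.10 at 24 h, and without replicate 1 it was 0.0931 at 8 h. Cdkn1a at 24 h held 1073, 1006 and 952 CPM in NT and 851, 812 and 783 CPM in IFT88siRNA, a log2 difference of -0.31 (adjusted p = 0.00198), with an adjusted p of 0.108 without replicate 2.

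Cdkn1b, Cdk4 and Ccnd3 were on the higher side in IFT88siRNA. For Cdkn1b the log2 difference was between 0.13 and 0.26 at the 6 times, and the adjusted p was under 0.05 at 0, 1, 2 and 24 h (edgeR, 0.00906, 0.0188, 0.0435 and 0.0242). Its 2 h libraries held 123, 110.4 and 127 CPM in NT and 141, 139.8 and 153 CPM in IFT88siRNA, with no overlap. Each of these 4 adjusted p-values was over 0.05 without replicate 1. Cdk4 differed by 0.08 to 0.19 and Ccnd3 by 0.02 to 0.17 over the 6 times. The adjusted p of both was under 0.05 at 0 and 1 h, at 0.00869 and 0.00202 for Cdk4 and 0.0124 and 0.00802 for Ccnd3. At 0 h that of Cdk4 was 0.0521 without replicate 1, 0.104 without replicate 3 and 0.122 on log2(TPM + 1), and that of Ccnd3 was 0.128 without replicate 3 and 0.125 on log2(TPM + 1). At 1 h that of Ccnd3 was 0.0518 without replicate 2. In the alternatives run, the adjusted p at 1 h reached 0.0887 for Ccnd3 and 0.0925 for Cdk4. Cdkn2a was higher by 0.13 at 0 h and 0.20 at 24 h (edgeR adjusted p = 0.0409 and 0.0463), but its difference at 2 h was -0.03. In the alternatives run, its adjusted p reached 0.455 at 0 h and 0.386 at 24 h.

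**Figure D4:**
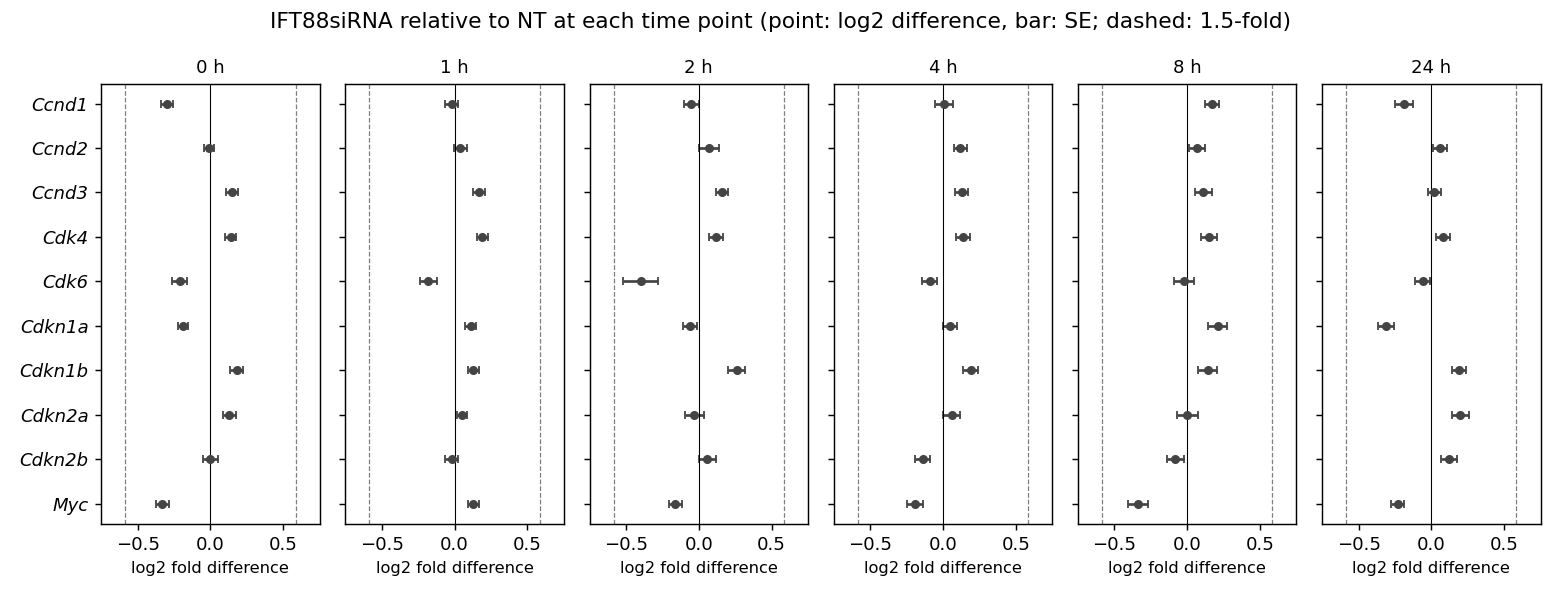
Log2 difference of IFT88siRNA from NT (x axis) for each gene (y axis) in 6 panels from 0 h to 24 h; points are edgeR estimates, bars are SE and dashed lines mark a fold of 1.5. All points lie between the dashed lines, the farthest being Cdk6 at 2 h (-0.40), and Cdkn1b lies right of 0 in all 6 panels.

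Whether the change from 0 h itself differed between the siRNA groups was tested with an interaction term over all 36 libraries. No gene of the set was called by edgeR, DESeq2 or limma, against 1.20% of all genes in edgeR, and 4 had an unadjusted p under 0.05, against 16.8% of all genes. By adjusted p alone Ccnd1 (0.00217), Cdkn1a (3.87e-05) and Myc (0.000201) passed, against 5.53% of all genes. Time by time, 2 genes passed at 1 h and 2 at 8 h by adjusted p alone, against 2.37% and 0.993% of all genes. At 8 h the change from 0 h was -1.67 in NT and -1.20 in IFT88siRNA for Ccnd1, and -0.77 and -0.36 for Cdkn1a, with differences of 0.48 (edgeR adjusted p = 0.000773) and 0.42 (adjusted p = 0.0012). For Myc at 1 h it was 1.23 and 1.70, a difference of 0.47 (adjusted p = 0.000214). The 3 genes also differed between the groups at 0 h, the libraries that each change is measured against. Without replicate 2 the joint adjusted p of Ccnd1 was 0.141, while those of Cdkn1a and Myc stayed at 0.0232 or less in all alternatives.

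Counts in the lists around these genes are read against the shares of all genes called in the same direction. In NT 9.22%, 13.0%, 16.3%, 11.8% and 6.61% of all genes were called higher and 9.45%, 14.3%, 12.4%, 7.87% and 9.71% lower, from 1 h to 24 h. In IFT88siRNA 6.82%, 12.4%, 16.0%, 10.5% and 6.36% were called higher and 8.25%, 13.2%, 13.3%, 7.11% and 7.87% lower.

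Of 18 genes of the G1-to-S step, for cyclins E and A, Cdk2, E2F factors and the retinoblastoma family, 0 rose in NT at any time and 4, 2, 5, 1 and 0 fell at the 5 successive times, a share above that of all genes at 1 and 4 h and below it at the other times. E2f2, an activating E2F, fell by 1.72 on the log2 scale at 2 h, Ccna2, the S phase cyclin, by 0.94 at 2 h, and Rbl2 and Rb1, which hold E2F genes in check, by 1.08 and 0.73 at 4 h. The list's median log2 change was lowest at 4 h, -0.34, beside -0.016 over all genes. In IFT88siRNA 1, 2, 5, 0 and 0 fell and 0 rose, a share above that of all genes at 4 h only. Of 22 markers of S phase and mitosis, 1, 5, 9, 4 and 0 fell in NT, above the share of all genes at 2, 4 and 8 h. Among them were the mitotic kinases Aurka (-1.34) and Plk1 (-1.10) at 2 h and the proliferation marker Mki67 (-0.86) at 4 h, while Mcm6, a helicase subunit, rose by 0.87 at 4 h. In IFT88siRNA 2, 8, 8, 2 and 0 fell, well above that share at 2 and 4 h and near it at 1 and 8 h. At 4 h in NT, when 9 of these markers fell, Ccnd1 and Cdk6 were also called, and at 24 h both were called while 0 of the markers fell. The part of the markers in those changes was not tested.

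Of 11 further inhibitors and turnover factors, Cdkn2d, another INK4 inhibitor, fell by 1.19 at 2 h and Fbxw7, a ubiquitin ligase subunit that marks Myc and cyclin E for degradation, by 0.99 at 2 h on the log2 scale in NT. At the 5 times 0, 2, 1, 1 and 2 of the 11 fell and 1, 0, 0, 0 and 0 rose. The rise was that of Cdkn1c at 1 h (0.71), a gene at a low level, from 3.66 to 6.05 CPM. Cdkn1c was called lower at 24 h (-0.67). With so few genes, the counts of this list lie near the shares of all genes. Cdkn2d thus moved in the opposite direction to Cdkn2a and Cdkn2b. In IFT88siRNA it fell by 1.43 at 2 h, and 0, 2, 2, 0 and 2 of the list fell.

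The Myc network was tested for 12 of its 13 other members in NT. At the 5 times 1, 3, 4, 1 and 0 rose and 1, 1, 2, 1 and 3 fell. The rises at 2 and 4 h and the falls at 24 h, of 3 or 4 genes each, were above the shares of all genes, and the other counts were near or below them. Some of these calls were of genes at low levels. Mlxipl rose at 4 h from 0.156 CPM (edgeR adjusted p = 0.0352), and Mycl and Mycn fell at 24 h from 2.22 and 3.11 CPM. Mnt, a repressor that competes for Max, rose by 1.04 on the log2 scale at 1 h and Mycl by 1.68 at 2 h from 2.22 CPM. Mycn fell by 1.78 at 1 h from 3.11 CPM and was 0.85 above 0 h at 2 h. Mxd4, another Max-binding repressor, fell by 1.27 at 4 h. In IFT88siRNA 1, 3, 3, 0 and 0 of 11 rose and 1, 1, 2, 2 and 1 fell.

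Of 24 genes known as Myc targets, 0, 0, 3, 5 and 1 rose and 4, 1, 1, 0 and 0 fell in NT. The falls at 1 h and the rises at 8 h were above the shares of all genes, and the counts at the other times were below them. Wdr43, a ribosome assembly factor, fell by 0.62 on the log2 scale at 1 h and rose by 1.07 at 4 h, Srm, the spermidine synthase, rose by 1.04 at 8 h and Tfrc, the transferrin receptor, by 1.76 at 24 h. The median log2 change of the list was -0.31, -0.13, 0.25, 0.46 and 0.33, beside medians between -0.019 and -0.008 over all genes. In IFT88siRNA 0, 0, 6, 7 and 1 rose and 0 fell, the rises being above the share of all genes at 4 and 8 h, with medians of -0.22, -0.06, 0.41, 0.51 and 0.35.

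Of 20 p53 target genes other than Cdkn1a, 6, 5, 4, 1 and 2 rose and 7, 8, 7, 12 and 2 fell in NT. The falls were above the shares of all genes from 1 to 8 h and near them at 24 h, and the rises were above them at 1 and 2 h, near them at 4 and 24 h and below at 8 h. Btg2 and Plk2, which are also immediate early genes, rose by 2.92 and 2.87 on the log2 scale at 1 h. At 8 h, the time at which Cdkn1a was called lower, Trp53inp1 (-1.48), Ccng1 (-1.42) and Perp (-1.18) were the members that fell most. In IFT88siRNA 6, 5, 4, 3 and 2 rose and 0, 6, 5, 4 and 3 fell. Ccng1, an early described p53 target, was the gene of this list called in the test of different responses, with a log2 difference at 8 h of 0.59 (edgeR adjusted p = 0.000203).

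**Figure D5:**
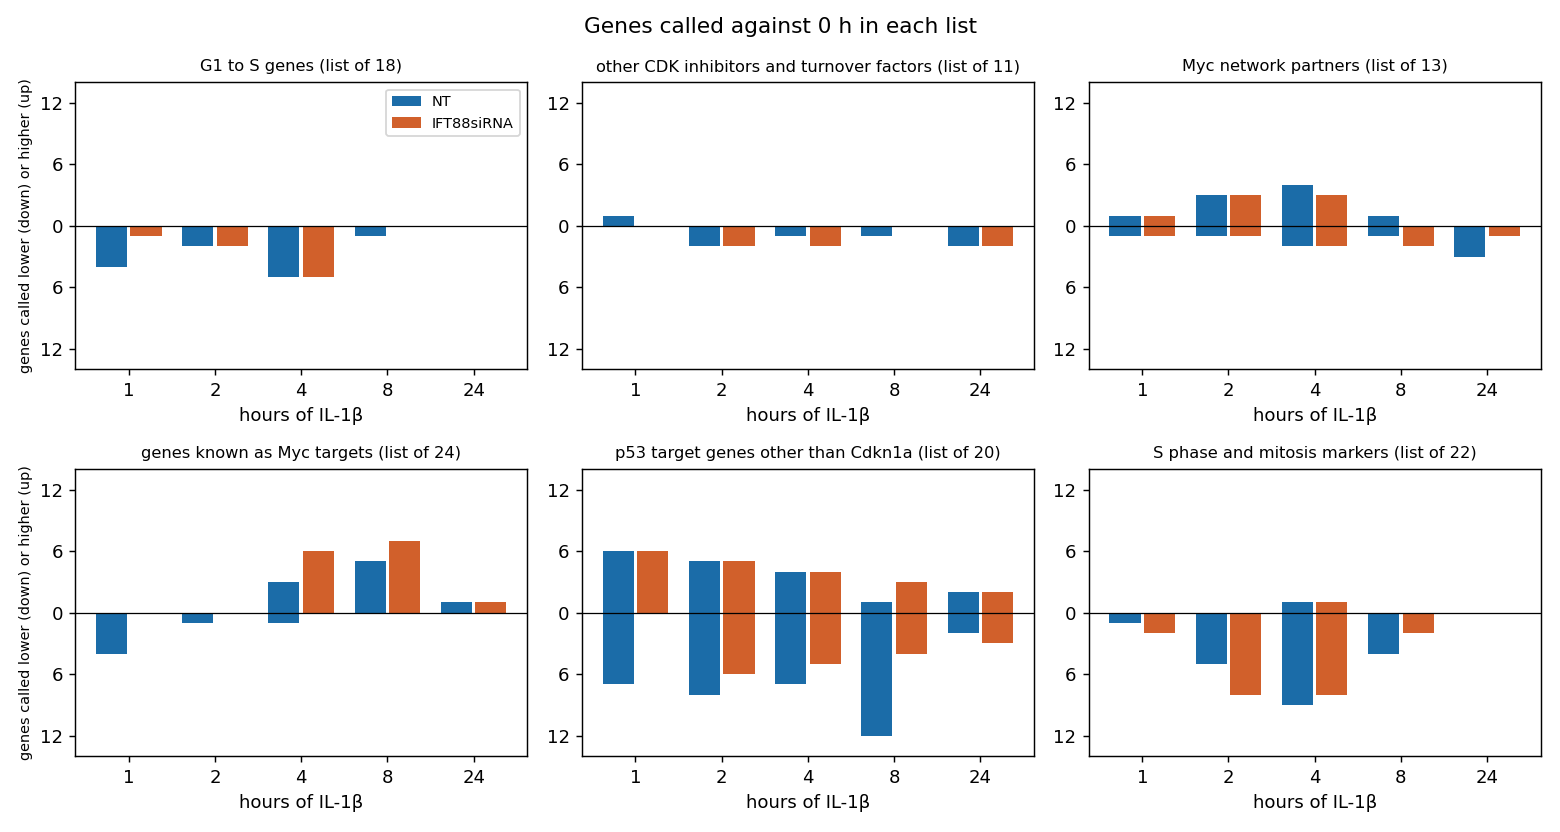
Number of genes called higher (bars up) or lower (bars down) than 0 h at 1 to 24 h of IL-1β in NT (blue) and IFT88siRNA (orange), for 6 gene lists around the G1 regulators. The G1-to-S list has bars downwards alone, the Myc target list in NT has 4 genes lower at 1 h and 5 higher at 8 h, and the p53 target list reaches 12 genes lower at 8 h in NT.

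The genes whose profiles over the 12 condition means were most like those of the set were sought among 13258 genes by Pearson r on log2 CPM. For Ccnd1 they were St14 (0.967), Ckmt1 (0.966) and Gpx3 (0.957), and for Ccnd2 Slc14a1 (0.951), Efna5 (0.948) and Srgap2 (0.926). For Ccnd3 they were Mocos, G3bp2 and Fut8 (0.962 to 0.969) and for Cdk6 Spsb1, Wdr36 and Odaph (0.981 to 0.987), the closest matches in the set. Cdkn1a had the loosest, Polk (0.929), Rap2a (0.889) and Eva1c (0.88). For Cdkn1b they were Synm, Ski and Rgs10 (0.939 to 0.951), for Cdkn2a Hmox1 (0.972) and Med29 (0.97), and for Cdkn2b Uhrf1bp1l, Ddr1 and Tnfsf15 (0.951 to 0.953). For Myc they were the stress factor Atf4 (0.952), Gadd45a (0.947) and Btg1 (0.946). The 12 points share their scaling and the siRNA groups share the time course, so these values describe likeness of shape only.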

How the data were processed

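Messenger RNA was sequenced as paired 75-base reads in 36 libraries. Per the file headers and the study's methods, the authors aligned reads to GRCm38 with HISAT2 2.1.0 and deposited raw counts per gene from featureCounts (Subread 1.6.3, Ensembl 91, default and so unstranded), and TPM values from Salmon 0.9.1 with GC bias correction. The labels give 50 nM siRNA, whereas the study's methods give a lower concentration, and the difference could not be resolved.

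Counts were tested in R 4.3.3 with edgeR 4.0.16 (TMM scaling, filterByExpr, quasi-likelihood F-test, two-sided, Benjamini-Hochberg over all genes of a fit). A call needed an adjusted p under 0.05 and a fold over 1.5. Time points were tested against 0 h within each siRNA group (18 libraries), singly and jointly. The siRNA groups were tested at each time (6 libraries) and jointly over all 36 libraries. The interaction term for the response also used all 36 libraries. Levels are CPM with TMM scaling, and TPM without it. Alternatives used DESeq2 1.42.0, limma 3.58.1 on log2(TPM + 1) or log2(TPM + 0.1), other scalings, filters and designs, and each replicate left out. Named genes were the 10 members, Ift88, in each list up to 3 called genes with the largest change, and the 3 genes most like each called member, of which 1 is not reported here. The members and gene lists were chosen with earlier results of these data known. On simulated counts, 99% of 200 genes changed by 1 on the log2 scale were recovered with 2 false calls for NT at 4 h (15608 genes). The changes were in either direction and all other genes were left unchanged. The simulation therefore did not test a shift of the bulk of genes or changes near the fold threshold. Replicates of a condition correlated at 0.9913 or more, and no 2 were identical.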

Additional observations from a re-analysis of the deposited data

Results flagged for a closer look

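In 4 instances the change from 0 h differed between the siRNA groups by the interaction test (edgeR adjusted p under 0.05), and each was under 1.5-fold. For Cdkn1a the log2 change was larger (less negative) in IFT88siRNA than in NT by 0.31 at 1 h (adjusted p = 0.0202) and by 0.42 at 8 h (adjusted p = 0.0012). The value at 1 h did not hold with any single replicate left out (adjusted p 0.115 to 0.199), and that at 8 h did not hold without replicate 2 (0.34, adjusted p = 0.168). For Ccnd1 the difference was 0.48 at 8 h (adjusted p = 0.000773), and without replicate 2 it was 0.44 (adjusted p = 0.0708). For Myc it was 0.47 at 1 h (adjusted p = 0.000214), with an adjusted p of at most 0.0189 in all alternatives run. All 4 rest on the same 0 h libraries, where Ccnd1, Cdkn1a and Myc were lower in IFT88siRNA. With 3 libraries per condition no library was tested as an outlier.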

How the results depend on the processing

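Of 246 values of the 10 genes and Ift88 over all comparisons, RLE scaling and the replicate block changed no call, and DESeq2 changed none of the 245 for which it gave an adjusted p (none for Ift88 at 4 h). Library size scaling, chosen after seeing the data, ended 12 calls and added 8, and limma on log2(TPM + 1) ended 14 and added 5, and the cause was not tested. Direction turned for Cdk6 at 1 h (0.46, 0.49 and 0.46 in NT and 0.21, 0.23 and 0.21 in IFT88siRNA on log2(TPM + 1), log2(TPM + 0.1) and log2(TPM + 1) without a filter), for Cdkn2b at 1 h in NT (-0.02 in all 3), and for the largest change of Cdk4 in NT (-0.38 in all 3 and -0.42 with library size scaling). The joint time course test in IFT88siRNA is not among the 246 values. It is reported with the stated settings alone, and its dependence on the processing is not given here. The number of the 10 called at 2 h in NT was 3 rather than 5 with library size scaling and in the 3 limma fits.

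Without a fold threshold 8, 4, 1, 1 and 4 of the 10 passed between siRNA groups at 0, 1, 2, 8 and 24 h, 9, 9, 10, 10 and 8 over time in NT, 9, 9, 9, 10 and 9 in IFT88siRNA, 7 in the joint siRNA test and 3 in the joint response test. Over all genes it gave 2979, 2808, 407, 570, 644 and 1318 between siRNA groups, 8304, 9768, 9775, 8415 and 7206 in NT (joint 14188), 6971, 9252, 9649, 7710 and 6419 in IFT88siRNA, and 5314 and 924 in the joint siRNA and response tests.

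With the threshold, all genes called between siRNA groups numbered 341, 393, 73, 64, 105 and 175 at 0, 1, 2, 4, 8 and 24 h, 868 jointly, and 201 for the response. DESeq2 gave 176, 223 and 34 at 0, 1 and 4 h. Limma gave 123, 135, 28, 24, 36 and 61 on log2(TPM + 1), with 421 jointly; 143, 133, 28, 25, 36 and 65 on log2(TPM + 0.1); and 75, 51, 11, 13, 22 and 34 with no filter, with 367 jointly and 115 for the response. No filter on counts gave 137, 100 and 245 at 2, 4 and 8 h and 345 for the response, and 1 model of all libraries 142 and 231 at 2 and 8 h. With 1 replicate left out the counts ran from 225 to 361, 165 to 444, 8 to 123, 23 to 92, 43 to 422 and 91 to 204, from 451 to 877 jointly and from 62 to 165 for the response. Same-numbered replicates did not deviate together (r between -0.133 and 0.223, 0 of 16 comparisons paired), and with the replicate block 115 genes were called at 2 h. Every count of the 10 genes was 590 or more, and 3 libraries per condition limit the precision.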
